A study of Drosophila melanogaster with 3 samples.

Results

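The tetraspanin genes of *Drosophila melanogaster* were taken as the protein-coding genes of the Ensembl annotation whose symbol starts with Tsp and a number, which gave 34 of 13945 protein-coding genes. They were examined for binding sites of Scalloped in embryos. Of these genes, 17 form the Tsp42E cluster and 17 lie elsewhere. The family was chosen by its summits in the pooled and reproducible peak lists, their ranks and their replicate support in these data, so the number of its genes with a peak is a description, given beside the same number over all protein-coding genes, and no test was made on it. A gene was counted as having a summit, the highest point of a peak, where a summit lay within 1000 bp of any of its transcription start sites (TSSs), and summits in the gene body were counted separately.

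Chromatin immunoprecipitation and sequencing (ChIP-seq) had been done in 3 biological replicates of 1 group. Each replicate was whole embryos of mixed sex, aged 4 to 20 h, from a transgenic line in which sd, the gene of Scalloped, is expressed with enhanced GFP at the C terminus, and an antibody against GFP was used. The deposited lists held 30000 peaks for each replicate, 30000 for the replicates pooled and 10553 in a list the authors thresholded on the irreproducible discovery rate (the IDR list), a measure of how alike peaks rank across replicates. The IDR list held the strongest peaks of the pooled list, and not every peak in it was found in all 3 replicates. Peaks were ranked in each list by the signal value of the authors' caller, rank 1 being the strongest. That value is comparable only within a list, and the sequencing depth behind it is unknown. In whole embryos, a site bound in a few cells and a site bound weakly in many cells cannot be told apart. No expression was measured in these samples, so a summit says where the tagged protein was found and not what the gene did.

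Tetraspanins are small proteins that cross the membrane several times and gather adhesion receptors, proteases and one another into membrane microdomains. In flies, Tsp2A builds the smooth septate junctions of the gut together with Mesh and Snakeskin, while Tsp86D, Tsp3A and Tsp26A help the protease Kuzbanian, which cleaves Notch, to reach the cell surface. Late bloomer (lbm), a tetraspanin whose gene sits inside the Tsp42E cluster, takes part in synapse formation by motor neurons, and Tsp42Ej, also known as Sunglasses, acts in the lysosomal degradation of rhodopsin in photoreceptors. Scalloped, a transcription factor with a TEA DNA-binding domain, works with the coactivators Yorkie and Vestigial.

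Tetraspanin genes with an IDR summit at a TSS were mostly those of the Tsp42E cluster. There, 13 of 17 genes (76.5%) had one, against 5 of the 17 genes elsewhere (29.4%) and 18 of 34 in the family as a whole (52.9%). Over all protein-coding genes the share was 30.5%, so the tetraspanin genes outside the cluster lay near the background. Gene bodies held an IDR summit in 9 of the 17 cluster genes and 5 of the 17 others, against 19.8% of all protein-coding genes. The density of summits in gene bodies was 0.255 per kb in the cluster genes, 0.0894 per kb in the others and 0.0823 per kb over all protein-coding genes. The median gene length was 2181 bp in the cluster, 2354 bp for the other tetraspanin genes and 2166 bp over all protein-coding genes, and the median gene in each set had 1 annotated TSS.

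The split was seen among the strongest peaks of each replicate. When the 10553 strongest peaks of each replicate were used alone, the cluster had 13 genes with a TSS summit in all 3. The genes elsewhere numbered 5 in replicate 1, 7 in replicate 2 and 5 in replicate 3, which is 33.3% ± 6.79 (SD, n = 3). Over all protein-coding genes the share was 31.5% ± 3.40 (SD, n = 3), and it was also highest in replicate 2, at 35.3%. With all 30000 peaks, the genes elsewhere numbered 6, 11 and 8 in replicates 1, 2 and 3 and the cluster genes 13, 13 and 14, so in replicate 2 the shares came close, at 64.7% and 76.5%, against 49.2% of all protein-coding genes. In the longer pooled list, 14 cluster genes and 7 others had a TSS summit, against 42.7% of all protein-coding genes. Counting only summits for which the gene had the nearest protein-coding TSS left 12 cluster genes and 5 others, against 23.9% of all protein-coding genes. The gene lost was Tsp42Eq, whose TSS summits all lay nearer to the neighbouring Tsp42Er.

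**Figure D1:**
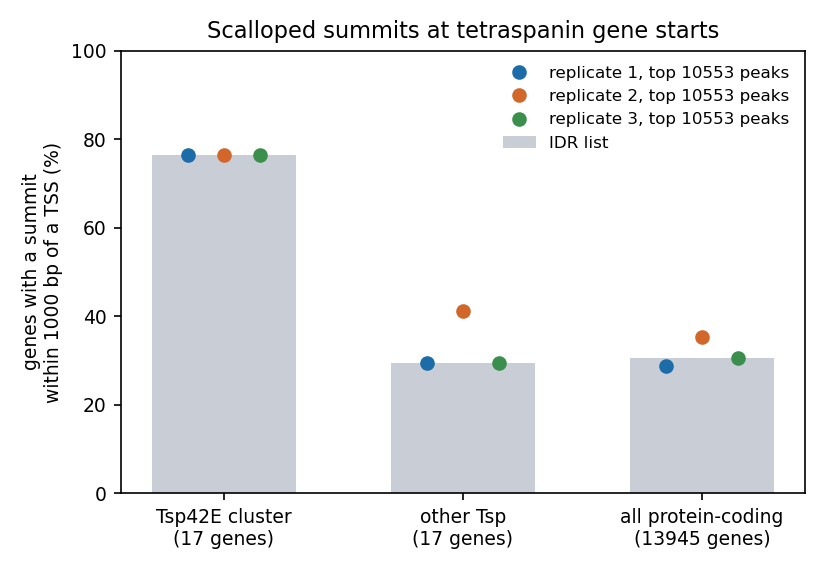
Percent of genes with a summit within 1000 bp of a TSS, for the 17 Tsp42E genes, the 17 other Tsp genes and all 13945 protein-coding genes. Bars show the IDR list and points the 10553 strongest peaks of each replicate; the cluster stands at 76.5% in all of them, and the other Tsp genes at 29.4% except in replicate 2.

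Outside the cluster, the genes with an IDR summit at a TSS were Tsp86D, Tsp5D, Tsp2A, Tsp96F and Tsp29Fb. Tsp86D had the strongest of these summits (3R, 10868736, dm6). It ranked 1512 in the IDR list, and 1716, 1446 and 1557 in replicates 1, 2 and 3. The positions in the 3 lists were thus close. The summit was 28 bp past the Tsp86D TSS, in its 5' UTR, and SelR, a methionine sulfoxide reductase gene on the other strand, starts 94 bp from it. Both starts thus lie well within the 1000 bp window. Of the other 2 tetraspanin genes tied to Kuzbanian, Tsp3A had its nearest IDR summit 14903 bp from its TSS and Tsp26A 14010 bp from it.

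The Tsp5D summit (X, 6075102) lay 245 bp upstream of the nearest TSS of the gene. It ranked 2906 in the IDR list, and 3254, 2712 and 3252 in the replicates. Tsp2A, the septate junction gene, had its strongest summit (X, 1347039) 46 bp upstream of the inner of its 2 annotated TSSs, within an intron of the longer transcript. This summit ranked 5142 in the IDR list, 6553 in replicate 2 and 5207 in replicate 3, and replicate 1 had no summit within 100 bp of it. Another summit (X, 1346341, rank 8740) lay 212 bp upstream of the outer TSS but only 42 bp from the TSS of MTPAP, a mitochondrial poly(A) polymerase gene, and it was found in all 3 replicates. Tsp2A thus had signal near both starts, of which the stronger was not called in every replicate.

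Tsp96F had 3 IDR summits, ranked 5707, 5812 and 6232. The weaker pair lay 57 and 1764 bp downstream of the TSS and the strongest, in an intron, 2460 bp downstream (3R, 25878967). All 3 were found in each replicate. Tsp29Fb had an intronic summit 621 bp downstream of its TSS (2L, 8938011, rank 8269) and another 307 bp upstream (2L, 8937083, rank 9170). The intronic summit ranked 8036 in replicate 1, 23438 in replicate 2 and 8584 in replicate 3, and the upstream summit ranked 12923, 7262 and 9797. Replicate 2 therefore placed the upstream summit first and the other replicates the intronic one. The adjacent gene Tsp29Fa had no IDR summit, and the nearest lay 2259 bp from its TSS.

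Tsp66E had an IDR summit only in its body. It lay in an intron, 8384 bp from the nearest TSS of the gene (3L, 8920926, rank 8320), and was found in all 3 replicates. The gene is long, at 19567 bp, and its body held 12 summits of the pooled list. The remaining 11 genes outside the cluster (Tsp26A, Tsp29Fa, Tsp33B, Tsp39D, Tsp42A, Tsp47F, Tsp66A, Tsp68C, Tsp74F, Tsp97E and Tsp3A) had no IDR summit at a TSS or in the body. Of these, Tsp97E had a weaker pooled summit, of rank 13556. No IDR summit lay within 5000 bp of a TSS for 9 of the 17 genes outside the cluster (52.9%), Tsp66E among them, against 0 of 17 cluster genes and 47.2% of all protein-coding genes. The greatest distance was at Tsp66A, where the nearest IDR summit lay 30105 bp away.

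Windows at 4 of these summits, in genes outside the cluster, are shown so that the bases under the signal can be read, and the gap between Tsp86D and SelR is shown beside them. They are given 5′ to 3′ on the strand of the gene, from the RefSeq copy of the dm6 genome, without UTR bases. Capitals mark CATTCC, the core site of TEA-domain factors, AATTCC, which differs from it in the first letter, and GATAA, the core of GATA-factor sites, on either strand. The Tsp29Fb window is centred on the intronic summit (chr2L:8937911-8938111, plus strand) and has 1 CATTCC. The Tsp96F window is centred on its strongest summit (chr3R:25878867-25879067, minus strand) and has 1 AATTCC. The Tsp5D window is centred on the upstream summit (chrX:6075002-6075202, minus strand) and the Tsp2A window starts 100 bp before the inner summit (chrX:1346939-1347084, plus strand), with 1 and 2 GATAA. The Tsp86D stretch (chr3R:10868643-10868707, plus strand) is the sequence between the 2 divergent starts, 65 bases long. It has none of the 3 motifs but does not hold the summit, which lies in the 5' UTR and has 1 GATAA within 100 bp.
Tsp29Fb: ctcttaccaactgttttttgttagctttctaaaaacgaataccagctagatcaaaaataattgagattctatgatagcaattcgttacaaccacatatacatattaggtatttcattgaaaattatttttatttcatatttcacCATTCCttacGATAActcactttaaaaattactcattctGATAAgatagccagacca
Tsp96F: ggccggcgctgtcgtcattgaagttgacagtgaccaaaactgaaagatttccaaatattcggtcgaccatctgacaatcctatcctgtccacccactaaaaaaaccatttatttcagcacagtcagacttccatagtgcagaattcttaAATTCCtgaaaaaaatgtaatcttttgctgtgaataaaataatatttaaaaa
Tsp5D: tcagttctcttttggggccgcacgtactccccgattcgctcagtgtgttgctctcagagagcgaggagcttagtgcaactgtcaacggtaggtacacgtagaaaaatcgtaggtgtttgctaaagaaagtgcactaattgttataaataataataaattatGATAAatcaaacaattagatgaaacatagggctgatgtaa
Tsp2A: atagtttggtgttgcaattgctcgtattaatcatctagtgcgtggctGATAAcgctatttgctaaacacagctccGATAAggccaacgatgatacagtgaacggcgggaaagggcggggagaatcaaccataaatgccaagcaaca
Tsp86D: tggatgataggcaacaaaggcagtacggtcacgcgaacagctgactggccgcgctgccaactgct

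Within the cluster, 1 summit stood far above the others. The Tsp42Ef summit (2R, 7025350, in a peak from 7024784 to 7025742) was 340 bp past the TSS, in the 5' UTR, and ranked 14 in the IDR list. It ranked 15, 25 and 14 in replicates 1, 2 and 3, at nearly the same base: its position moved by 0, -9 and -6 bp from that in the IDR list. Its signal value was 7377, or 13.3 times the IDR median of 553. In the replicates it was 13.7, 11.3 and 12.9 times the median of the 10553 strongest peaks. The next tetraspanin summit, in Tsp42Eg, was weaker by a ratio of 3.39 in the IDR list and of 3.70, 3.08 and 3.34 in the replicates. Tsp42Ef is thus the tetraspanin gene with the strongest Scalloped signal in the IDR list and in each of the 3 replicates.

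Tsp42Eg had 3 IDR summits, of which the strongest (2R, 7029861) lay in an intron, 950 bp downstream of the TSS. It ranked 462 in the IDR list and 535, 483 and 446 in the replicates. The others lay 291 bp upstream (rank 2304) and 2313 bp downstream (rank 5349). Tsp42Ea, at the start of the cluster, had its strongest summit 860 bp upstream of its first TSS (2R, 6991816). This summit had rank 642 in the IDR list and 778, 494 and 656 in the replicates. A further summit, of rank 1675, lay 33 bp upstream of that TSS. The 2 remaining summits in Tsp42Ea, an intronic one of rank 2979 and one of rank 7374, lay nearer to CG30159, a gene nested in it. CG30159 starts 0.005 kb from the start of Tsp42Ea on the same strand. The summits of rank 642 and 1675 thus also lie within 1000 bp of a CG30159 TSS, and they cannot be assigned to Tsp42Ea alone. Tsp42Ef, Tsp42Eg and Tsp42Ea were the tetraspanin genes with a TSS summit of rank 1000 or better, which 5.25% of all protein-coding genes had.

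The other cluster genes had weaker summits. Tsp42El had a summit of rank 1594, 260 bp upstream. The divergent pair Tsp42Ed and Tsp42Ee shared a summit of rank 1600, which lay in an intron of Tsp42Ed, and another of rank 10200 lay 80 bp upstream of Tsp42Ee. Tsp42Ei followed at rank 2773, Tsp42Ek at 3801 and Tsp42Eh at 4137. Tsp42En and Tsp42Eo shared a summit of rank 3191, which lay upstream of Tsp42Eo and in the body of Tsp42En. Tsp42Eq and Tsp42Er shared summits of rank 5353 and 5645 within 1 peak. Neighbouring genes of the cluster thus often count the same summit, as 6 of the 33 distinct tetraspanin summits did. At the edge of the window, the strongest Tsp42Eg summit (950 bp) and 1 of those counted for Tsp42Eq (971 bp) lay just inside, while 2 Tsp42En summits, at 1148 and 1347 bp, lay just outside.

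The cluster genes with no IDR summit were Tsp42Eb, Tsp42Ec, Tsp42Ej and Tsp42Ep. Tsp42Eb and Tsp42Ec lie in the longest stretch of the cluster with no summit, 16453 bp between 6994984 and 7011437. In Tsp42Ej, the sunglasses gene, the pooled list held a summit of rank 26351 near the TSS, which was called in replicate 3 at rank 23372 and in neither other replicate. In Tsp42Ep, a pooled summit of rank 10557 lay in the gene body and just missed the IDR list. It lay 2224 bp from the Tsp42Ep TSS but only 607 bp from that of Tsp42Eo, which lies within Tsp42Ep on the other strand.

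**Figure D2:**
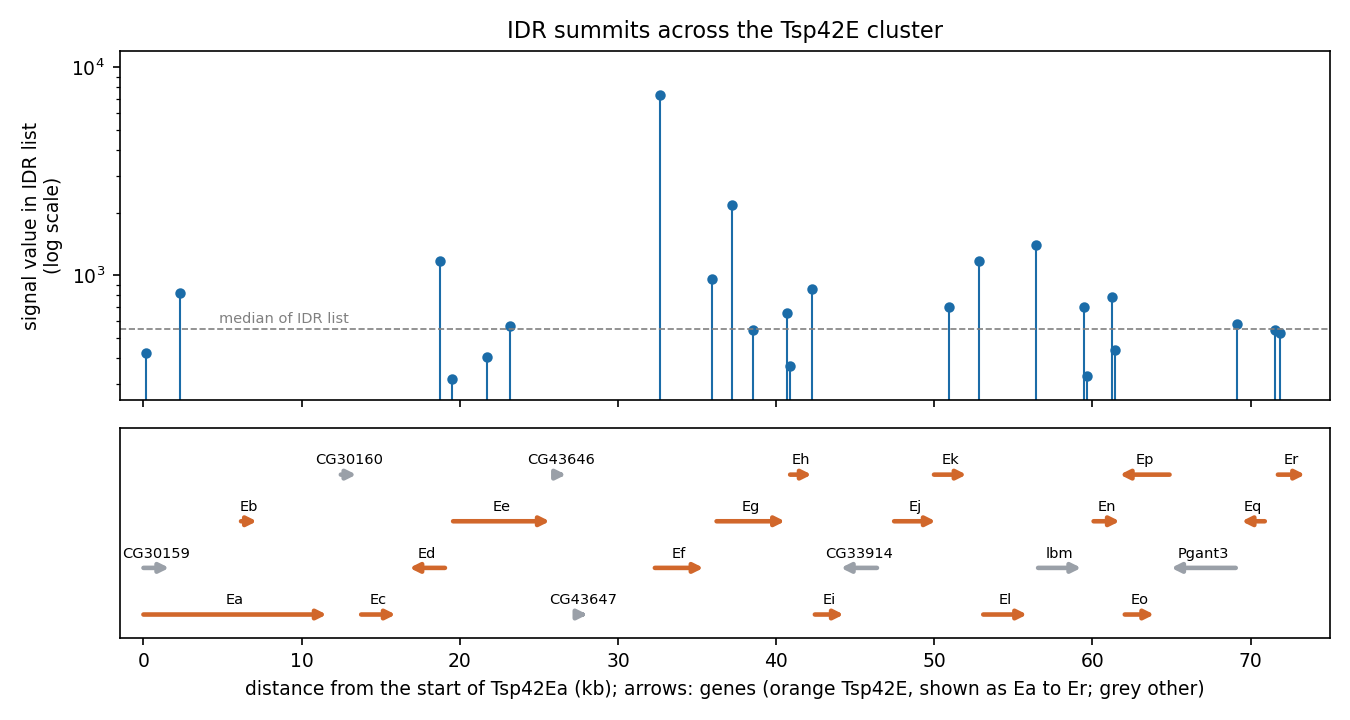
Map of the Tsp42E cluster, with distance from the start of Tsp42Ea in kb on the x axis. Upper panel, signal value of the 23 IDR summits on a log axis with the median of the IDR list dashed; lower panel, genes as arrows in the direction of transcription. The Tsp42Ef summit, at 7377, is the tallest. The summits 860 and 33 bp upstream of Tsp42Ea lie before the cluster interval and are not drawn.

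As a region, the cluster spans 73438 bp (2R, 6992676 to 7066113) and held 23 IDR summits, or 3.13 per 10 kb. The rate was 0.867 per 10 kb over the whole of arm 2R and 0.788 over the genome. The 10553 strongest peaks of each replicate gave 3.04 ± 0.157 per 10 kb (SD, n = 3). When the genome was divided into 1820 windows of this length, 34 of them (1.87%) held as many summits or more, the median window held 4 and the highest held 41. The cluster is thus among the denser regions, and others are denser. The windows were not matched for their number of genes, and the cluster interval holds 24 protein-coding genes. Of the 23 summits, 14 were above the IDR median, and the Tsp42Ef summit alone made up 31% of the summed signal value. This set holds the summits nearest to lbm and Pgant3 and leaves out those of rank 642 and 1675 upstream of Tsp42Ea. It thus differs from the 23 summits counted for the cluster genes.

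The cluster also holds 7 genes that are not Tsp genes by symbol, CG30159, CG30160, CG43646, CG43647, CG33914, lbm and Pgant3. With them, 16 of its 24 protein-coding genes had a TSS summit. Among 13807 overlapping runs of 24 neighbouring protein-coding genes, 302 (2.19%) had as many or more, and the median run had 7. The family was chosen by its summits, so this share is a description and not a test. lbm, the late bloomer gene, had the strongest cluster summit whose nearest protein-coding TSS was not that of a Tsp gene. That summit lay 104 bp upstream of the lbm TSS (2R, 7049134). It ranked 1155 in the IDR list and 1090, 1639 and 1114 in the replicates. TM4SF, a tetraspanin gene elsewhere on 2R, had no IDR summit, and its strongest pooled summit ranked 13440.

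The 33 distinct summits of the family, 23 of cluster genes and 10 of the others, resembled IDR peaks at large. Their median rank was 5142 against 5277 for the whole list, 17 were above the median signal value, and the median peak interval was 464 bp against 441 bp. Of the 33, 31 (93.9%) were matched within 100 bp in each replicate, against 91.4% of the IDR list. The exceptions were the inner Tsp2A summit and a weak Tsp42En summit of rank 9895, both missed in replicate 1. By position in the tetraspanin gene with the nearest TSS, 15 lay outside the gene, 13 in an intron, 4 in a 5' UTR and 1 in coding sequence. Of those outside, 2 lay upstream of Tsp42Eo but in the body of Tsp42En. Within 500 bp of the nearest protein-coding TSS lay 19 of the 33. For 28 of the 33, that nearest TSS belonged to a Tsp gene.

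The 3 strongest genes stood apart from the rest in every replicate. As the share of a replicate's 30000 peaks that ranked above it, the Tsp42Ef summit stood at 0.0567% ± 0.0203 (SD, n = 3) and its highest value was 0.08%, below the lowest value of Tsp42Eg, 1.48%. Tsp42Eg, at 1.62% ± 0.149, and Tsp42Ea, at 2.14% ± 0.475, overlapped. Both lay below Tsp86D, at 5.24% ± 0.452, whose lowest value was 4.82%. From Tsp86D down to Tsp96F, each gene overlapped the next. Tsp29Fb had the widest spread, at 44.5% ± 29.1, with 26.8%, 78.1% and 28.6% in replicates 1, 2 and 3.

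**Figure D3:**
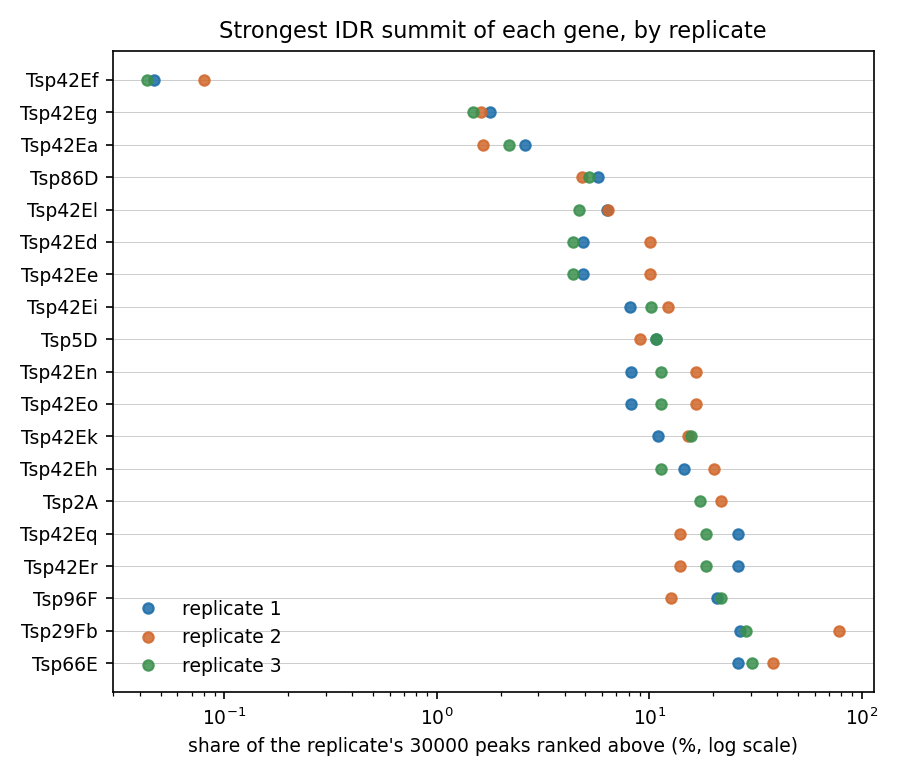
Share of the 30000 peaks of a replicate that ranked above the strongest IDR summit of each of the 19 genes with one, in percent on a log axis, with a point for each replicate in which a matching summit was found. Tsp42Ef lies at 0.08% or less in all 3 replicates; Tsp42Ed with Tsp42Ee, Tsp42En with Tsp42Eo and Tsp42Eq with Tsp42Er share a summit.

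The share of tetraspanin summits with CATTCC lay between those of all IDR summits and of flanking windows. Searched on both strands within 100 bp, it was found at 5 of 33 (15.2%, exact 95% Clopper-Pearson interval 5.11 to 31.9%), against 19.8% of all IDR summits, 16.5% of those near a protein-coding TSS and 8.63% of flanking windows 1000 to 1200 bp away. The interval holds each of these shares, but it treats the 33 summits as independent. Of them, 23 belong to Tsp42E genes, and neighbouring summits share sequence. A difference from these shares was not tested. The 5 summits were the strongest ones of Tsp42Eg and Tsp42Ea, the intronic Tsp29Fb summit, the weaker summit shared by Tsp42Eq and Tsp42Er, and a summit in Tsp42Ee (rank 5090) that lay nearer to CG43646. AATTCC was found at 5 of 33, against 23.5% of all IDR summits. CTACTC, the letters of CATTCC in another order, was found at 1 of 33, against 3.63%.

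The Tsp42Ef peak had no CATTCC within 100 bp of its summit or anywhere in its 959 bp. Among the 100 strongest IDR peaks, 51% had at least 1 within 100 bp. The Tsp42Ef window held 1 AATTCC and 4 copies of GAGAG, the core of GAGA-factor sites, of which some overlap one another. GAGAG was found at 11 of the 33 tetraspanin summits (33.3%) and at 29.3% of all IDR summits. In flanking windows it was found at 14 of 44 for the tetraspanin summits (31.8%) and at 20.9% for all IDR summits. GATAA was found at 13 of 33 (39.4%), close to the 39.5% of all IDR summits and to 17 of 44 flanking windows of the tetraspanin summits (38.6%). It was found at 6 of the 10 summits of genes outside the cluster and 7 of the 23 of cluster genes. The exact 95% intervals of these shares, 26.2 to 87.8% and 13.2 to 52.9%, overlap, and a difference was not tested. TATCGATA, the DREF element, CAGGTA, the core bound by Zelda, and AACCGGTT, bound by Grainyhead, were each found at 0 of 33, with an exact 95% upper limit of 10.6%, and over all IDR summits they were found at 2.1%, 4.23% and 0.692%. Further than 100 bp from its summit, the Tsp42Ef peak held 1 TATCGATA and 1 CAGGTA. That a motif is not within 100 bp of a summit says nothing of the factor.

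**Figure D4:**
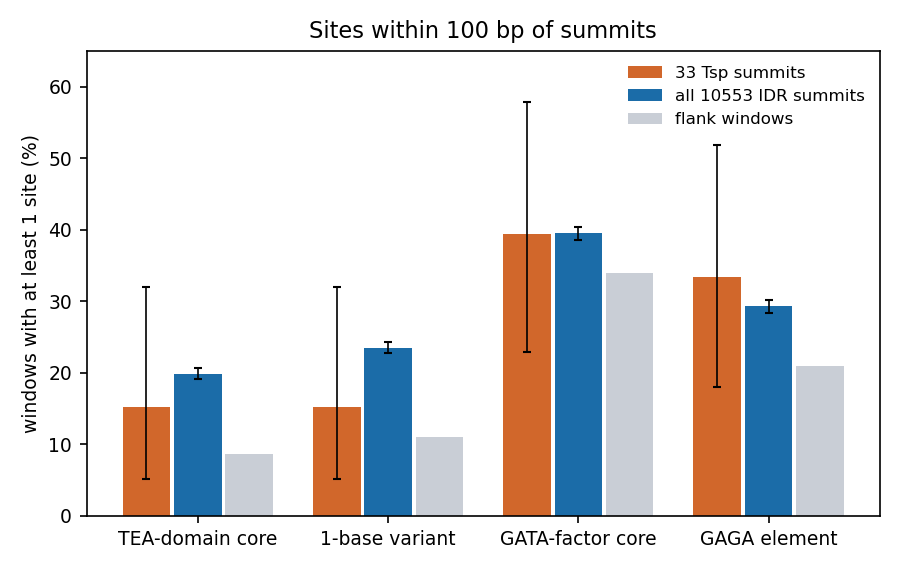
Percent of 201-bp windows with at least 1 site for 4 motifs (the TEA-domain core, its 1-base variant, the GATA-factor core and the GAGA element). Shares are given at the 33 tetraspanin summits, at all 10553 IDR summits and in the flanking windows of all IDR summits. Error bars are exact 95% binomial intervals, which cover counting error only and treat summits as independent. Those of the tetraspanin summits hold the share of all IDR summits for each motif, but no difference was tested.

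Genes whose products work with tetraspanins were also examined, as a list of 9. That list was fixed with earlier results of these data known, so its counts are a description. In the IDR list, all 9 had a summit at a TSS, beside the 30.5% of all protein-coding genes, and their median length of 17374 bp is greater than that of the tetraspanin genes. Of the septate junction partners of Tsp2A, mesh had the strongest summit, 146 bp upstream of a TSS, with rank 305 and 1 CATTCC. Ssk (Snakeskin) had a summit of rank 1040, 60 bp upstream, and hoka, which encodes a further protein of these junctions, an intronic summit of rank 2273. All 3 summits ranked above the Tsp2A summits, in the IDR list and in each replicate. Notch (N) and kuz, the Kuzbanian gene, had their strongest summits at ranks 3031 and 3914, below that of Tsp86D. The kuz summit lay 131 bp from a TSS, but that of N lay 8568 bp inside the gene, and its summit at a TSS ranked 4059. The integrin subunit genes mew, if, scb and mys had their strongest summits at 1908, 2630, 2876 and 4356. Those of mew and scb lay 2666 and 1738 bp from the nearest TSS, and the summit at a TSS of mew ranked 7996. The mys summit lay nearer to a TSS of fs(1)h.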

How the data were processed

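The deposited files were narrowPeak lists on dm6, for each of 3 replicates, for the pooled replicates and for the IDR selection. Per the file headers, the authors made them from dm6 alignments with 1 control alignment (not analysed here). Aligner, caller and IDR threshold are not given in the sources used here. The signal value of each peak is the authors' own and was used only within a list. The deposited −log10 q value was at its ceiling of 4.38 for 100% of IDR peaks and did not order them. The IDR list equals the 10553 strongest peaks of the pooled list. No list gives read totals, so depth is unknown. The labels name the replicates as biological.

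Genes were those of Ensembl release 115 (BDGP6.54, dm6 coordinates) on arms 2L, 2R, 3L, 3R, 4 and X, and positions are 1-based. A summit counted for a gene within 1000 bp of any TSS or in its body. Summits of different lists were matched to the nearest within 100 bp. Motifs were searched on both strands of the RefSeq dm6 genome, and flanks within 500 bp of an IDR summit were left out. Every gene of the family is accounted for, and other genes are named where they lie nearer to a summit, inside the cluster or in the lists of partners. The members and lists were chosen with earlier results of these data known, so no test was made. Alternatives were other windows, lists, matching distances and motif settings, and each replicate left out. Assignment, matching and motif search were tested on simulated data. Tools were Python 3.11.15, numpy 2.4.6, scipy 1.17.1 and matplotlib 3.10.9.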

Additional observations from a re-analysis of the deposited data

How the results depend on the processing

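The number of tetraspanin genes with a TSS summit, 18, stayed between 14 (IDR peaks above the median signal value) and 21 (pooled list) under the alternatives tried. It was 18 without each replicate, but the IDR list was made from all 3 and was not called again, so this setting only keeps IDR peaks matched in both other replicates and does not show independence of the one left out. Counting by the nearest TSS, chosen after seeing the data, gave 17. The number of distinct summits, 33, was 63 in the pooled list and 17 among IDR peaks above the median, which hold more and fewer peaks by construction. The cluster's 3.13 summits per 10 kb became 5.17 and 1.91 under the same changes and 2.86 with the strongest peaks of replicate 3 alone. The median rank of the strongest summits, 3191, was 2462 in replicate 1; the cause was not tested. The share of summits with CATTCC, 15.2%, ran from 6.06% with the longer site to 18.2% with a window of 150 bp. Of the 18 genes, some of which share a summit, 17 had their strongest TSS summit matched in all 3 replicates, and 12 when matched within 50 bp. No paired analysis was possible because the samples form 1 group. The unknown depth puts no interval on signal values, and 33 summits limit the motif shares to wide intervals.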

Other observations

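The replicate lists placed summits near TSSs of some tetraspanin genes that have no IDR summit there. Near a TSS of Tsp3A, replicate 2 had a summit of rank 4790, and neither other replicate nor the pooled list had one there. Near Tsp74F, replicate 2 had a summit of rank 4981, where replicate 3 had one of rank 18812 and replicate 1 none. Tsp47F and Tsp29Fa also had a summit in replicate 2 only, at ranks 14064 and 17406. Tsp42Ej had one in replicate 3 only, at rank 23372, and Tsp97E had summits in all 3 replicates, at ranks 13778, 17899 and 11413. Tsp66E had one at a TSS in replicates 2 and 3, at ranks 25420 and 15573. Over all peaks of the list, replicate 2 had a summit within 1000 bp of a TSS for 11 of the 17 genes outside the cluster, against 6 in replicate 1 and 8 in replicate 3, and for 49.2% of all protein-coding genes, against 41.9% and 43.3%. The cluster genes numbered 13, 13 and 14 in replicates 1, 2 and 3.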
